A study of Mus musculus with 13 samples.

Results

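The genes described here encode 10 subunits of the BAF complex, the mammalian SWI/SNF chromatin remodeller. They are grouped for the change in its subunits as dividing neural progenitors become neurons. The genes are Smarca2, Smarca4, Actl6a, Actl6b, Phf10, Dpf1, Dpf3, Ss18l1, Bcl11a and Bcl11b. They were taken by the gene symbol of the platform annotation, which matched all 10 genes with 16 of 30626 probes that carry 1 symbol, among 21893 genes in all. The set was chosen by its place in the switch and selected on its measured differences between TH-MYCN+/+ and wild type on these arrays, which were already known. Those differences are therefore given as a description, with no test.

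Total RNA of superior cervical and coeliac ganglia, the sympathetic ganglia of the neck and abdomen, was measured at 2 weeks of age on 1-colour Agilent arrays. There were 6 samples of TH-MYCN+/+ mice and 7 of age-matched wild-type littermates. TH-MYCN+/+ mice are homozygous for a transgene with human MYCN behind a tyrosine hydroxylase promoter, which is active in catecholamine-producing cells and their precursors, and they develop neuroblastoma. The labels do not say whether an array is 1 animal or a pool, so the spread between arrays may be technical in part. Levels are log2 intensities after quantile normalization. In the ganglia a lower level cannot be told apart from fewer cells that express the gene, nor a higher level from more such cells. The probe for mouse Mycn does not check the human transgene. A level on 1 probe is not compared with a level on another probe.

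BAF complexes use the energy of ATP to move or evict nucleosomes. Each carries a single ATPase, Smarca4 or Smarca2, and a set of accessory subunits that differs between cell types. In mouse neural progenitors the complex holds Actl6a, Phf10 and Ss18, and when cells leave the cell cycle these give way to Actl6b, to Dpf1 or Dpf3, and to Ss18l1. Bcl11a and Bcl11b are zinc finger DNA-binding proteins that join the complex in neurons and in lymphocytes.

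The arrays did not show the progenitor set high and the neuronal set low as blocks. In TH-MYCN+/+ ganglia the progenitor actin-like subunit Actl6a was 4.33-fold higher, while its neuronal counterpart Actl6b lay within the wild-type range on 4 of 6 arrays and differed by -0.45 ± 0.20 (SE) on the log2 scale. In the plant homeodomain finger position the order was the opposite one. The neuronal subunit Dpf1 was 6.04-fold higher and the progenitor subunit Phf10 differed by 0.16 ± 0.13 (SE). The log2 difference of Bcl11a, 6.43 ± 0.61 (SE), exceeded those of the other 9 genes. As a description, higher levels were thus seen both for a progenitor subunit, Actl6a, and for a neuronal subunit, Dpf1. Of the 10 genes, 5 were called higher and 1 lower by limma at an adjusted p under 0.05, where 53.2% of all genes were called, 18.9% higher and 34.3% lower. The groups did not overlap for 4 of the 10, Smarca4, Actl6a, Dpf1 and Bcl11a, all higher, against 35.4% of all genes, 12.3% higher and 23.1% lower. Since the choice of genes used this contrast, nothing is read from these counts.

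**Figure D1:**
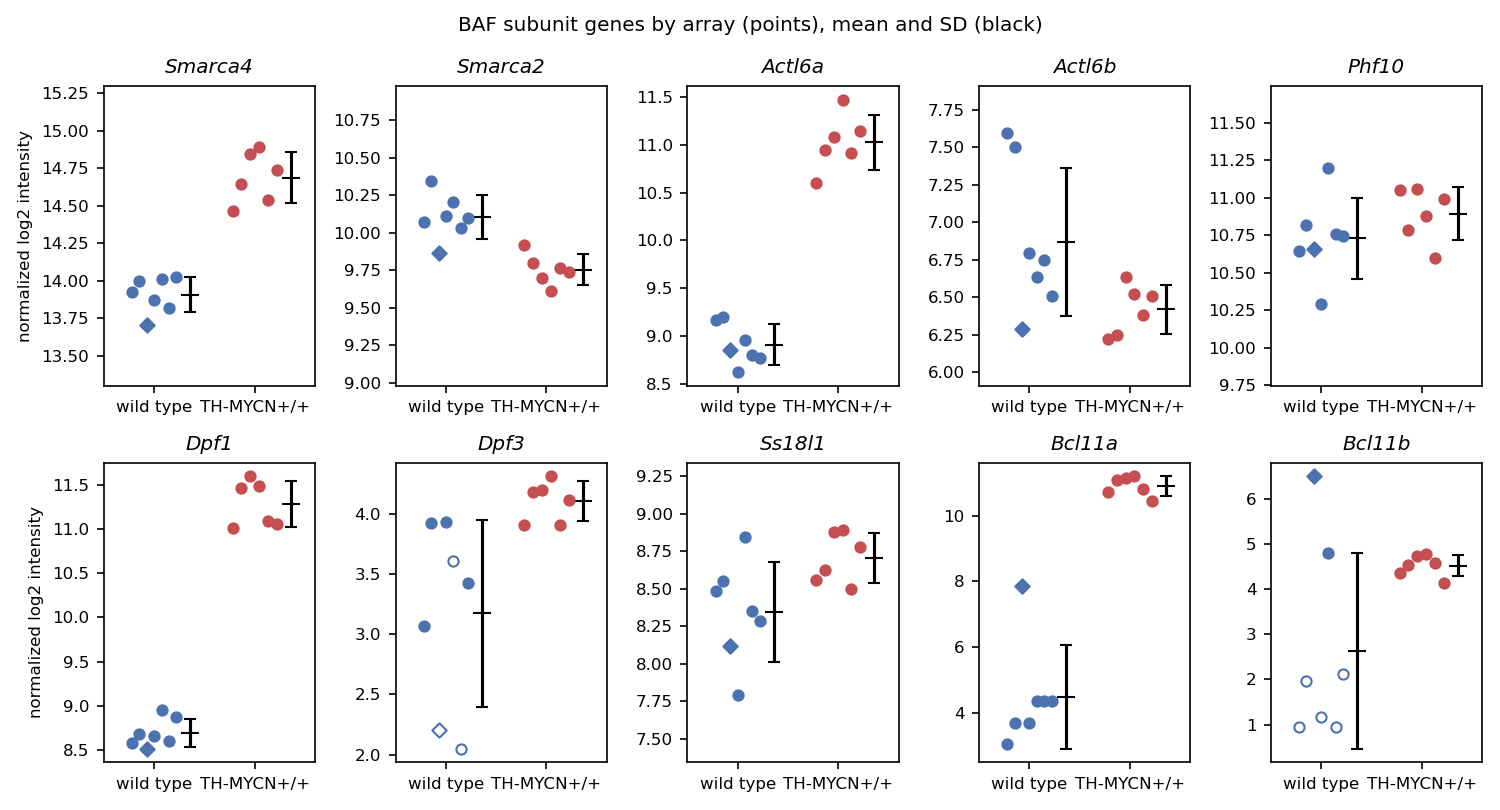
Normalized log2 intensity (y axis) of the 10 subunit genes by genotype (x axis), 1 point an array, with the mean and SD in black (6 TH-MYCN+/+ in red, 7 wild type in blue). Open points lie below the background of their array and the diamond is wild-type replicate 3. Actl6a, Dpf1, Smarca4 and Bcl11a are separated, while Actl6b, Phf10, Dpf3, Ss18l1, Smarca2 and Bcl11b overlap.

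The promoters of the actin-like pair and of the genes with the largest differences are shown, since they carry the contrast within the set. Each is the window of 300 bases that RefSeq on GRCm38.p6 gave around a transcript start, 250 bases before to 50 after it, 5′ to 3′ on the strand of the gene. That start need not be the outer end of the gene: the window of Bcl11a lies inside the gene span given further on, and those of Actl6b and Dpf1 are set on starts other than the first base of their spans. Capitals mark CCAAT boxes (CCAAT) and GC boxes (GGGCGG) on either strand, and neighbouring GC boxes can overlap. The windows are chr3:32708296-32708595 on the plus strand for Actl6a, chr5:137553296-137553595 on the plus strand for Actl6b, chr7:29303755-29304054 on the plus strand for Dpf1, and chr11:24080445-24080744 on the plus strand for Bcl11a.
Actl6a: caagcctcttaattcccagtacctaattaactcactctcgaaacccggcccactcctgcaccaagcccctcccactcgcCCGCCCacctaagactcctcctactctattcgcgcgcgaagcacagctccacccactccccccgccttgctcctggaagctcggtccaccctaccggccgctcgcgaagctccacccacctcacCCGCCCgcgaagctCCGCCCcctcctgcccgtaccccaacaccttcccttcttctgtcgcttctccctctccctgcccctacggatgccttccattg
Actl6b: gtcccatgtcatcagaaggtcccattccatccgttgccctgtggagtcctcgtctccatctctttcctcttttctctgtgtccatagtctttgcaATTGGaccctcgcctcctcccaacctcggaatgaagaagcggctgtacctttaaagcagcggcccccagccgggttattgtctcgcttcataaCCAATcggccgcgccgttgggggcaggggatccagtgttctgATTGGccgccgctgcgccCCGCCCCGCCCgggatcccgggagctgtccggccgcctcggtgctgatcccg
Dpf1: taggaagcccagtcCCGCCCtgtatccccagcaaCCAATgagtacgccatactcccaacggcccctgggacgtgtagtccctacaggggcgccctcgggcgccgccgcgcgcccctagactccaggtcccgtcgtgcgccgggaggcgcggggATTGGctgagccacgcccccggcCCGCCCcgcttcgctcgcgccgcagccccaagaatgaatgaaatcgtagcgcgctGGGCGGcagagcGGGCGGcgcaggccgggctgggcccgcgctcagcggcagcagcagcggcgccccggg
Bcl11a: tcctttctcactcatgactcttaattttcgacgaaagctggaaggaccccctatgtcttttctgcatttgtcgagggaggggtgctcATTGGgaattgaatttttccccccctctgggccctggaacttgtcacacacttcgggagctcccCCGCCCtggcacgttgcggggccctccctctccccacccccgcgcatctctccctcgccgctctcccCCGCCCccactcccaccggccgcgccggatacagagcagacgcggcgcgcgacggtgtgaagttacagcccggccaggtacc
The Actl6a window held 3 GC boxes and no CCAAT box, and the Actl6b window held 3 CCAAT boxes and 2 GC boxes. The Dpf1 window held 2 CCAAT boxes and 4 GC boxes, and that of Bcl11a 1 and 2. Over all 10 promoters, a CCAAT box lay in 4 (Actl6b, Dpf1, Dpf3 and Bcl11a), against 37.4% of 32851 promoter windows of 300 bases. A GC box lay in 9, all but Bcl11b, against 35.7% of windows. The Bcl11b window, on the minus strand, ends at 108003664, inside a gene span that runs to 108004145. Its lack of a GC box and its base composition are those of this inner start. None of the 10 held the E-box CACGTG, the core sequence bound by MYC family proteins, which was in 7.15% of windows. None held TTTGGCGC or TTTCCCGC, letters of E2F sites, against 1.56%. The base composition of these promoters ranged from 43.0% G and C for Bcl11b to 87.0% for Phf10. A match is a description of these letters only.

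The ATPases come first. Smarca4, the ATPase required in dividing neural progenitors, had on its brighter probe a lowest value of 14.46, a median of 14.69 and a highest of 14.89 on TH-MYCN+/+ arrays, against 13.71, 13.92 and 14.02 in wild type. Every TH-MYCN+/+ array lay above every wild-type array, and the difference was 0.78 ± 0.08 (SE), a 1.72-fold higher level. Its second probe gave 0.88 ± 0.18 (SE), with groups that overlapped between 9.89 and 9.99. Smarca2, the alternative ATPase, ran from 9.61 over a median of 9.75 to 9.92 in TH-MYCN+/+ and from 9.86 over 10.10 to 10.34 in wild type. The overlap came from wild-type replicate 3 alone, whose 9.86 lay below the next wild-type value of 10.03. The difference of Smarca2 was -0.35 ± 0.08 (SE) after quantile normalization, but it was 0.17 when arrays were scaled to the E1A spike-in probes and 0.0077 in the values as deposited. Its direction therefore depends on the scaling, while that of Smarca4 was positive under each scaling, from 0.63 to 1.37.

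The actin-like subunits bind the ATPase and actin. Actl6a, on chromosome 3 from 32708546 to 32726973 on GRCm38.p6, had a lowest value of 10.60, a median of 11.02 and a highest of 11.47 on TH-MYCN+/+ arrays. In wild type these were 8.62, 8.85 and 9.20. The lowest TH-MYCN+/+ array lay above the highest wild-type array, and the difference was 2.11 ± 0.14 (SE). Over all scalings it stayed between 1.87 and 2.62. Actl6a is also a subunit of the INO80, SRCAP and TIP60 complexes, so its level is not a measure of BAF alone.

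Actl6b, the neuron-specific counterpart, lies on chromosome 5 from 137553361 to 137569582. It ran from 6.22 over a median of 6.44 to 6.63 in TH-MYCN+/+ and from 6.29 over 6.74 to 7.60 in wild type. The wild-type spread came from replicates 1 and 2, at 7.60 and 7.50, while the other 5 lay between 6.29 and 6.80. Without single arrays the difference lay between -0.55 and -0.33, and with spike-in scaling it was 0.21. Markers of mature sympathetic neurons were lower on the same arrays. Of 10 such markers 9 were called lower and none higher, with a median of -1.31. Their summed linear level was 205597 to 371659 in TH-MYCN+/+ and 665825 to 807690 in wild type, and all 10 were above background on every array. The part of these lower levels in the Actl6b value was not tested.

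The plant homeodomain finger proteins follow. Phf10, the progenitor form, ran from 10.60 over a median of 10.93 to 11.06 in TH-MYCN+/+ and from 10.29 over 10.75 to 11.20 in wild type. The TH-MYCN+/+ values lay inside the wild-type range. Dpf1, a form found in postmitotic neurons, is on chromosome 7 from 29303952 to 29317592. On its brighter probe it ran from 11.01 over 11.28 to 11.60 in TH-MYCN+/+ and from 8.51 over 8.66 to 8.95 in wild type, with no overlap. The difference was 2.59 ± 0.12 (SE), and the second probe gave 2.64 ± 0.15 (SE). Over the scalings the brighter probe stayed between 2.37 and 3.12. Dpf3, the other neuronal form, was dim. Its brighter probe ran from 3.91 over 4.15 to 4.32 in TH-MYCN+/+, above background on 6 of 6 arrays. In wild type it ran from 2.05 over 3.43 to 3.93 and was above background on 4 of 7 arrays, and its 2 highest arrays reached just above the 2 lowest TH-MYCN+/+ arrays. The difference of 0.93 ± 0.31 (SE) rests in part on values below background, and the second Dpf3 probe was below background on all 13 arrays.

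Ss18l1, a neuronal transactivator that is the counterpart of Ss18, ran from 8.50 over a median of 8.70 to 8.89 in TH-MYCN+/+ and from 7.79 over 8.35 to 8.84 in wild type. The 2 highest wild-type arrays, at 8.55 and 8.84, reached into the TH-MYCN+/+ range, and the difference was 0.36 ± 0.15 (SE). Under the scalings it lay between 0.20 and 0.94, always positive. Ss18, which is not among the 10, rose by 0.81 ± 0.11 (SE) with an adjusted p of 3.12e-05 (limma, Benjamini-Hochberg). It too was listed with earlier results of these data known.

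Bcl11a lies on chromosome 11 from 24076564 to 24173558. Its brightest probe ran from 10.45 over a median of 10.96 to 11.19 in TH-MYCN+/+ and from 3.06 over 4.35 to 7.87 in wild type. The wild-type value of 7.87 was replicate 3, and the other 6 wild-type arrays lay between 3.06 and 4.35. Without that array the difference was 6.99 in place of 6.43. A second probe gave 6.17 ± 0.59 (SE). The dimmest probe, for which the platform gives no transcript accession, gave 0.093 ± 0.38 (SE) and was above background on 0 of 6 TH-MYCN+/+ arrays and 2 of 7 wild-type arrays, and its inclusion brings the mean of all probes down to 4.23. Bcl11b, which shares the zinc finger design of Bcl11a, ran from 4.15 over 4.56 to 4.78 in TH-MYCN+/+ and was above background on 6 of 6 arrays. In wild type it ran from 0.94 over 1.97 to 6.51 and was above background on 2 of 7 arrays, replicates 3 and 5, which both lay above every TH-MYCN+/+ array. The difference was 1.89 ± 0.84 (SE) over all arrays and 2.53 without wild-type replicate 3. It rests on wild-type values below background, and the second probe, above background on 1 of 7 wild-type arrays, gave 3.06 ± 0.81 (SE).

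Wild-type replicate 3 also stood apart in lymphocyte markers. Bcl11a is expressed in B cells and Bcl11b in T cells. The 5 measured B cell markers had a mean of 9.30 on that array, against 4.43 to 5.05 on the other wild-type arrays and 3.78 to 6.65 on TH-MYCN+/+ arrays. Their summed linear level was 7522 there, 299 to 410.0 on the other wild-type arrays and 256 to 1204 in TH-MYCN+/+. The 5 T cell markers had a mean of 9.27 on that array, against 4.59 to 5.35 on the other wild-type arrays and 4.28 to 6.79 in TH-MYCN+/+. Their summed level was 3932 there, 770.0 to 1263 on the other wild-type arrays and 535 to 1051 in TH-MYCN+/+. Between the genotypes none of 5 B cell markers was called in either direction, and of the T cell markers only Cd3e was called, lower in TH-MYCN+/+. The B cell factor Pax5 was above background on 0 of 6 TH-MYCN+/+ and 1 of 7 wild-type arrays. On TH-MYCN+/+ replicate 5, where both marker means were the highest of the group, Bcl11a was 10.82. Wild-type replicate 5, with Bcl11b at 4.81, had a T cell marker mean of 4.89. These are values of single arrays, and the part of lymphocytes in the Bcl11a and Bcl11b levels was not tested.

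**Figure D2:**
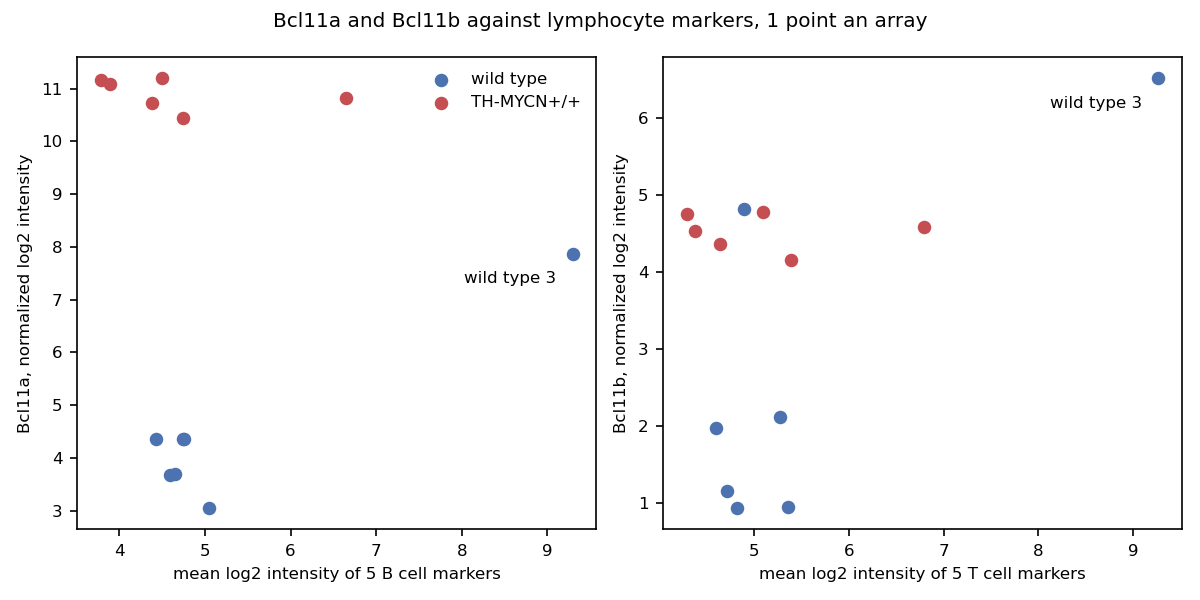
Normalized log2 intensity of Bcl11a against the mean log2 intensity of 5 B cell markers (left) and of Bcl11b against 5 T cell markers (right), 1 point an array, TH-MYCN+/+ in red and wild type in blue. Wild-type replicate 3 lies far to the right in both, at 9.30 and 9.27, while Bcl11a is above 10 on all TH-MYCN+/+ arrays.

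Differences between counterpart subunits within an array do not change under a scaling that shifts a whole array. Quantile normalization, used for the values below, is not such a shift, so their sizes can differ from those under other scalings. Their absolute size depends on the probes, and only the difference between genotypes is read. Actl6b minus Actl6a ran from -4.95 over a median of -4.58 to -4.38 in TH-MYCN+/+ and from -2.56 over -2.06 to -1.58 in wild type, a difference between genotypes of -2.56 ± 0.16 (SE) with no overlap. Dpf1 minus Phf10 ran from -0.038 over 0.52 to 0.68 and from -2.25 over -2.13 to -1.63, a difference of 2.43 ± 0.15 (SE) with no overlap. Smarca2 minus Smarca4 ran from -5.28 over -4.92 to -4.55 and from -3.93 over -3.81 to -3.66, a difference of -1.13 ± 0.11 (SE), also with no overlap. These differences follow from those of the single genes, on which the set was selected, so they are a description with no test. In RNA of whole ganglia, the actin-like pair in TH-MYCN+/+ lay further toward the progenitor form than in wild type. The ATPases lay further toward Smarca4, and Dpf1 and Phf10 further toward the neuronal form. Whether subunits were exchanged within a cell was not measured. Ss18l1 minus Ss18 differed by -0.45 ± 0.13 (SE) and Dpf3 minus Phf10 by 0.77 ± 0.32 (SE), and in both pairs the groups overlapped. Bcl11b minus Bcl11a differed by -4.54 ± 0.46 (SE) without overlap, and by -1.76 when all probes of each gene were averaged. Bcl11b was above background on only 2 of 7 wild-type arrays, so the wild-type values of this pair are not measured levels on the other 5.

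**Figure D3:**
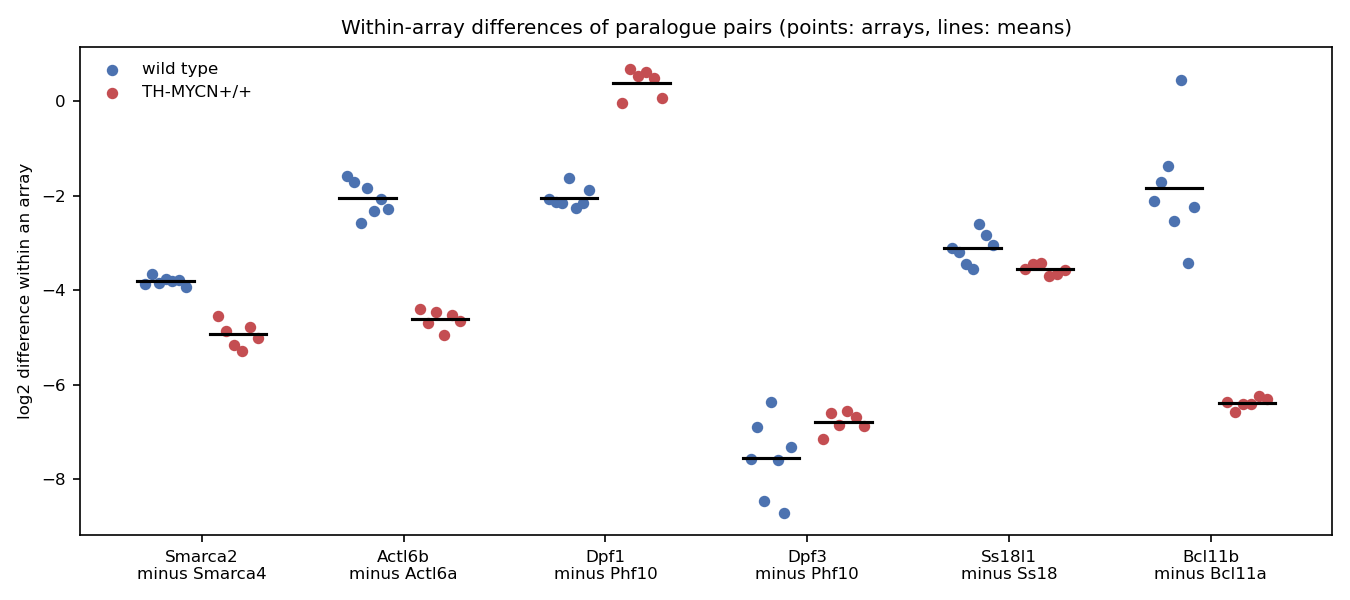
Log2 difference within an array (y axis) for 6 pairs of subunits (x axis), 1 point an array, with group means as lines, wild type in blue and TH-MYCN+/+ in red. The pairs Smarca2 and Smarca4, Actl6b and Actl6a, Dpf1 and Phf10, and Bcl11b and Bcl11a are separated, with the Dpf1 and Phf10 pair shifted upward and the other 3 downward. Bcl11b was below background on 5 of 7 wild-type arrays.

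Among the 21 BAF subunits outside the set, 15 rose, 1 fell and 5 did not pass, with a median difference of 0.60 where the median of all genes was -0.15. The shares called over all genes were 18.9% higher and 34.3% lower. After median centring 11 were called higher and 1 lower, with a median of 0.34, and Brd7, Smarcc2, Smarcd2 and Bcl7b lost their calls. After scaling to the spike-in probes 15 were called higher and 0 lower, where 25.9% of all genes were higher and 7.21% lower. Bcl7a rose by 1.37 ± 0.14 (SE, adjusted p = 3.85e-06, limma). Smarcd1, a core subunit, rose by 1.30 ± 0.11 (SE, adjusted p = 1.23e-06, limma). Arid2, the subunit that defines the PBAF form, ran from 9.01 to 9.51 in TH-MYCN+/+ and from 7.77 to 8.18 in wild type and rose by 1.29 ± 0.10 (SE, adjusted p = 3.88e-07, limma). Smarce1, a DNA-binding subunit with a high mobility group domain, ran from 12.35 to 12.70 and from 11.07 to 11.52 and rose by 1.22 ± 0.09 (SE, adjusted p = 3.66e-07, limma).

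The other rises are given for the brightest probe of each gene. Pbrm1, of PBAF, rose by 0.83. Brd7, also of PBAF, rose by 0.27, but was 0.0039 after median centring and 0.14 after centring on the 75th percentile, neither called, and its second probe gave 1.37. Brd9 and Bicra, of the form without an ARID subunit, rose by 0.60 and 0.70. The core subunit Smarcb1 rose by 0.71, the ARID subunits Arid1a and Arid1b by 0.70 and 0.61, Smarcd2 by 0.48, Smarcc2 by 0.39 and Bcl7b by 0.39. Another Arid1b probe gave -0.36. Bcl7b, at an adjusted p of 0.0446 by limma, lost its call without any of 8 single arrays. Smarcd3, a form tied to muscle and neurons, fell by 0.54 ± 0.09 (SE, adjusted p = 2.32e-04, limma). It ran from 8.54 to 8.80 in TH-MYCN+/+ and from 8.93 to 9.47 in wild type, without overlap, but was 0.024 with spike-in scaling and not called there.

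Dpf2, the widely expressed relative of Dpf1 and Dpf3, gave 0.052 ± 0.07 (SE, adjusted p = 0.582, limma). Bicral gave 0.011 and Actb -0.012. Smarcc1, a core subunit, gave -0.085 on its brightest probe, but its other 3 probes gave 0.997 to 1.47, and the mean of all 4 was 0.89 (adjusted p = 1.53e-05, limma). Bcl7c gave -0.015 on its brighter probe and 2.05 on the other, with a mean of 1.02 (adjusted p = 7.13e-06, limma). Whether these genes changed thus depends on the probe.

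**Figure D4:**
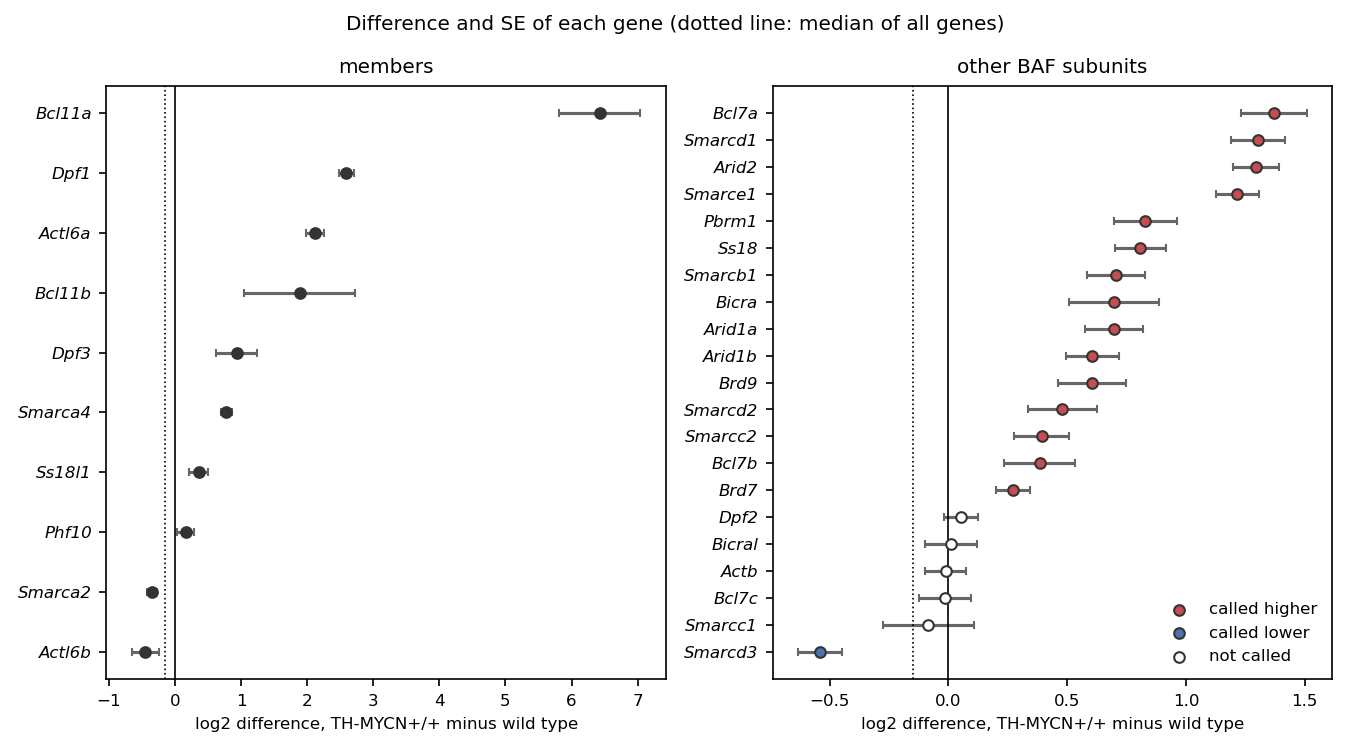
Log2 difference of TH-MYCN+/+ minus wild type with its SE (x axis) for the 10 genes of the switch (left) and 21 other BAF subunits (right), with the median of all genes as a dotted line at -0.15. On the right, 15 subunits are marked as called higher, 1 as lower and 5 as not called. The x axes differ in range.

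The complexes that share Actl6a, and the other remodelling ATPases, were read in the same way. Of 25 subunits of INO80, SRCAP and TIP60, 17 rose and 2 fell, with a median of 0.49. After median centring 9 were called higher and 3 lower. The histone reader Mbtd1 rose by 1.71 ± 0.12 (SE, adjusted p = 1.93e-07, limma) and the AAA ATPase Ruvbl2 by 1.29 ± 0.10 (SE). Brd8 rose by 0.99 and Actr5 by 0.72, while Morf4l1 fell by 0.86 and Znhit1 by 0.53, and neither fall was called with spike-in scaling. Of 16 ATPases of other remodellers 9 rose and 4 fell, with a median of 0.56. Hells rose by 2.59 ± 0.12 (SE, adjusted p = 4.66e-09, limma), Chd7 by 1.83, Smarcad1 by 1.29 and Chd4 by 0.72. Smarcal1 fell by 1.07, the neuronal Chd5 by 0.89, Chd3 by 0.37 and Chd9 by 0.28, and none of these was called lower with spike-in scaling. The background of 18.9% called higher and 34.3% called lower over all genes applies to these lists too.

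Reported regulators of the switch were measured as well. In mouse neurons miR-9-3p, also written miR-9*, and miR-124 repress Actl6a, and the repressor Rest keeps both miRNAs off in other cells. The mature miRNAs were not measured, but 2 host transcripts of miR-9 were. The mature forms are shown with the seed, bases 2 to 8, in capitals, from RefSeq on GRCm38.p6 at Mir9-3 (chr7:79505279-79505301 and chr7:79505318-79505339, plus strand).
mmu-miR-9-5p: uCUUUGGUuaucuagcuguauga
mmu-miR-9-3p: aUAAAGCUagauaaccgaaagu
Mir9-3hg, whose span on chromosome 7 from 79500026 to 79534403 contains Mir9-3, ran from 5.59 over a median of 5.94 to 6.97 in TH-MYCN+/+. It was below background on all 7 wild-type arrays, with a measured mean of 0.86, and was at least 9.03-fold higher in TH-MYCN+/+ (adjusted p = 7.83e-10, limma). This bound sets the TH-MYCN+/+ mean against a wild-type mean in which each value is raised to the lowest signal above background of its array. C130071C03Rik, whose span on chromosome 13 contains Mir9-2, fell by 1.75 ± 0.25 (SE, adjusted p = 5.64e-05, limma), from 6.41 to 7.95 in wild type to 4.84 to 5.89 in TH-MYCN+/+. The hosts of the same mature miRNA thus moved in opposite directions.

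Rest ran from 5.41 over a median of 6.16 to 6.46 in TH-MYCN+/+ and from 7.33 over 7.59 to 7.97 in wild type, and fell by 1.57 ± 0.16 (SE, adjusted p = 5.15e-06, limma). Its second probe gave -1.10 ± 0.16 (SE). Rcor1, a corepressor that binds Rest, rose by 0.70 ± 0.10 (SE, adjusted p = 3.68e-05, limma) on its brighter probe, and the other gave 0.050. The splicing regulators Ptbp1, which acts in progenitors, and Ptbp2, which acts in young neurons, rose by 0.92 ± 0.09 (SE, adjusted p = 4.32e-06, limma) and 1.15 ± 0.16 (SE, adjusted p = 5.49e-05, limma). Mir124-2hg was below background on all 13 arrays.

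The spread among arrays of 1 genotype, which the choice of genes did not use, was examined against proliferation. The mean of 9 measured proliferation markers, 8 of which were called higher, had a summed linear level of 41874 to 67992 in TH-MYCN+/+ and 1595 to 3193 in wild type. Of 20 correlations, 10 genes within each genotype, none passed after Benjamini-Hochberg adjustment in a two-sided exact permutation test. The smallest p was that of Dpf3 in TH-MYCN+/+ (Pearson r = 0.87, exact permutation p = 0.00556, adjusted p = 0.111; Spearman rho = 0.89, exact permutation p = 0.0333, adjusted p = 0.438; n = 6). It was 0.85 without the 2 arrays farthest from the median of proliferation. For Actl6a in TH-MYCN+/+, r was 0.80 and rho 0.71 (exact permutation p = 0.0764 and 0.136, adjusted p = 0.292 and 0.438, n = 6), and r fell to 0.46 without the 2 farthest arrays.

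Among 12 correlations of such pairs within a genotype, 2 passed by Pearson's r and none by Spearman's rho. Smarca2 and Smarca4 ran opposite to each other on the 6 TH-MYCN+/+ arrays (r = -0.91, exact permutation p = 0.00694, adjusted p = 0.0417; rho = -0.94, exact permutation p = 0.0167, adjusted p = 0.1), and r was -0.79 without the 2 farthest arrays. This relation rests on the scaling, since r was -0.14 after median centring and 0.69 with spike-in scaling. On the 7 wild-type arrays the same genes gave r = 0.82 (exact permutation p = 0.0248, adjusted p = 0.0744; rho = 0.68, exact permutation p = 0.11, adjusted p = 0.327), and r was 0.43 without the 2 farthest arrays. Under the 4 other scalings the wild-type r was 0.92 to 0.99. Bcl11a and Bcl11b ran together on the 6 TH-MYCN+/+ arrays (r = 0.93, exact permutation p = 0.00694, adjusted p = 0.0417, and rho = 0.94, exact permutation p = 0.0167, adjusted p = 0.1). Without the 2 farthest arrays r was 0.62, after centring on the 75th percentile it was 0.86 and did not pass (adjusted p = 0.108), and with the mean of all probes it was -0.68. On the 7 wild-type arrays Bcl11a and Bcl11b gave r = 0.84 (exact permutation p = 0.0214, adjusted p = 0.0744). Without the 2 farthest wild-type arrays r was 0.37. The wild-type rho was 0.39 (exact permutation p = 0.396, adjusted p = 0.528). This wild-type r passed after median centring, at 0.85, with spike-in scaling, at 0.90, and as deposited, at 0.88. However, Bcl11b was above background on only 2 of these 7 arrays, so each wild-type r rests in part on values below background. Replicate 3, with Bcl11a at 7.87 and Bcl11b at 6.51, is 1 of the 2 farthest arrays. No batch is named in the labels, so no value within batches could be given.

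The genes whose pattern over the 13 arrays was most like that of Actl6a, among 13282 genes above background on every array, were Rfc5 (r = 0.997), Pde7a (r = 0.996) and Chaf1a (r = 0.996). Those most like Actl6b were Eef1akmt1 (r = 0.983), Rmnd5b (r = 0.970) and Commd9 (r = 0.967). These values describe the arrays only, since the points share their genotype and normalization.

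Facts of the whole series bear on the directions above. Of 21893 genes, 11652 were called, 35.5% of them higher in TH-MYCN+/+. This share was 22% after median centring, 31.0% after centring on the 75th percentile, 66.8% as deposited and 78.2% with spike-in scaling. The median gene moved from -0.15 to -0.44, -0.30, 0.14 and 0.30 in the same order. Between 56.3% and 63.0% of probes lay above background on an array. Of 8 measured glial markers 7 were called lower and 1 higher, all 6 endothelial and all 6 fibroblast markers were called lower, and their part in the differences above was not tested. Summed glial marker levels were 19080 to 34737 in TH-MYCN+/+ and 61416 to 79818 in wild type. Endothelial sums were 1857 to 2837 and 3546 to 5175, and fibroblast sums were 65651 to 114854 and 255878 to 321317. Of 6 macrophage markers 2 were called higher and 4 lower, with sums of 4697 to 6165 and 5218 to 7616. No adrenal cortex marker of 6 was called, and their sum reached 2928 on wild-type replicate 1, against 110 to 472 on the other wild-type arrays and 168 to 516 in TH-MYCN+/+. The calls of cell type markers, here and above, were made after quantile normalization only and were not repeated under the other scalings.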

How the data were processed

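RNA of 6 TH-MYCN+/+ and 7 wild-type samples was hybridised to 1-colour Agilent arrays after Cy3 labelling, per the labels' protocols. The deposited values were taken as log2 intensities. The base was inferred from their range, and no source used here names the scanner software or the background correction. The table held 55821 probes, 140 of them controls, and 25055 array probes carried no symbol and were left out. Of the probes with a symbol, 30332 matched a RefSeq gene by Entrez number and 0 symbols changed. Array probes were quantile normalized, and the probe with the highest mean stood for its gene.

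Genotypes were compared with limma 3.58.1 in R 4.3.3, with genotype as the only term, over 21893 genes with Benjamini-Hochberg adjustment and a threshold of 0.05. Background was the 95th percentile of 96 ERCC probes, which assumes that none were spiked in, and spike-in scaling used the 7 of 10 E1A probes above it on all arrays. SEs of differences within arrays come from the variances of each group. Correlations were tested over all 720 or 5040 pairings. Simulated data with 50 changed genes per size gave recoveries of 32%, 72%, 86% and 96% for log2 changes of 0.5, 1, 2 and 4, with 17 false calls among 21893 genes.

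The genes, the lists and the tests were chosen with earlier results of these data known. Named were all 10 genes, all other BAF subunits and reported regulators, up to 4 called genes in each direction of the other lists, and the 3 genes most like Actl6a and Actl6b. Mir124a-1hg and Rncr3, of the regulators, were not matched. The alternatives were 4 other scalings, a filter on dim genes, the mean of all probes, the replicate block, other variance models, array weights and leaving out each array. Numbers do not pair the samples: correlations of deviations of same-numbered arrays ran from -0.126 to 0.0473.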

Additional observations from a re-analysis of the deposited data

Results flagged for a closer look

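Bcl11a on wild-type replicate 3 was 7.87, far above the next wild-type value of 4.35. Actb, a BAF subunit that is also the cytoskeletal actin, was 17.24 on TH-MYCN+/+ replicate 1, below the next value of 17.47, and 17.17 on wild-type replicate 4, below the next value of 17.45. Mir124-2hg was 2.50 on wild-type replicate 1, above the next value of 1.54, with all its values below background. In each case the array stood apart from its group by more than Dixon's 95% critical value. There were 4 such cases among 76 groups of values, and chance gives about 1 in 20.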

How the results depend on the processing

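Of the 10 switch genes, whose differences are a description, Actl6a, Bcl11a, Dpf1 and Smarca4 were higher under each scaling. So were Ss18l1, Dpf3 and Bcl11b, with Dpf3 and Bcl11b resting in part on values below background. Phf10 was -0.11 after median centring. Actl6b turned to 0.21 with spike-in scaling and 0.053 as deposited. Smarca2 turned to 0.17 with spike-in scaling and 0.0077 as deposited. Smarcd3 turned to 0.024 with spike-in scaling, Chd3 to 0.17 and Chd9 to 0.19, and as deposited Chd3 was 0.0059 and Chd9 0.032. With the mean of all probes Smarcc1 was 0.89, Bcl7c 1.02, and Dpf3 0.47. Ss18l1 and Bcl11b were 0.94 and 2.49 with spike-in scaling. With spike-in scaling 7254 of all genes were called, and after median centring 12 of the 25 subunits of complexes with Actl6a. With spike-in scaling 14 of 20 correlations with proliferation passed, against 0 after median centring, 0 after centring on the 75th percentile and 0 as deposited. Of the 12 pair correlations 6 passed after median centring, 1 after centring on the 75th percentile, 7 with spike-in scaling, 8 as deposited and 0 with the mean of all probes. Smarca2 with Smarca4 in TH-MYCN+/+ was then 0.69 with spike-in scaling and 0.55 as deposited, and Bcl11b with Bcl11a was -0.68 with the mean of all probes. The cause of these changes was not tested. With the replicate block 10537 of all genes, 6 of the 10 genes and 14 of the other BAF subunits were called, Smarcd2 and Bcl7b losing their calls. Leaving out single arrays gave 6 to 8 calls among the 10, from which nothing is read, and 15 to 16 among the other BAF subunits. Over all 21893 genes it gave 10944 to 11787 calls. The number of arrays limits precision, and levels near background are least certain.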
